A study of Mus musculus with 12 samples.

Results

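Liver RNA of 3 *Atg7*-KO mice (*Atg7* flox/flox;Alb-*Cre*) was compared with that of 3 cont. mice (*Atg7* flox/flox). These 6 libraries were chosen by genotype from the 9 with a column of counts, among 12 labelled samples. All 6 mice carried both floxed alleles of *Atg7*, were on a C57BL/6 background and were 3 months of age, so that the genotypes differed by the *Cre* transgene. Its albumin promoter is active in hepatocytes. Which other cells of the liver kept *Atg7* cannot be read from these counts. No cont. group with the transgene alone was used here. Each library holds RNA of whole liver, in which fewer cells of a type and less RNA per cell cannot be told apart. The labels do not give the sex of the mice.

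ATG7 is the E1-like enzyme that activates ATG12 and the LC3 family, the ubiquitin-like proteins by which autophagosomes are built. Cargo receptors such as p62, encoded by *Sqstm1*, are themselves degraded by autophagy and collect in bodies when it stops. p62 binds KEAP1, the adaptor that marks the transcription factor NRF2 for destruction, and NRF2 activates genes of glutathione synthesis, quinone reduction and NADPH supply. Hepatocytes are also the main source of plasma proteins, bile acids and urea, and chronic injury of the liver is known to bring macrophages, matrix and ductular cells with it.

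The libraries held 9671080 to 23285132 counts in cont. and 16157269 to 18480553 in *Atg7*-KO mice. Libraries of cont. were less alike than those of *Atg7*-KO. Spearman correlations across genes were 0.904 to 0.979 among cont. and 0.990 to 0.994 among *Atg7*-KO mice, and the second principal component, with 19.1% of the variance, set cont. mouse 1 apart. That mouse correlated at 0.929 and 0.904 with cont. mice 2 and 3, and at 0.907, 0.898 and 0.89 with *Atg7*-KO mice 1, 2 and 3. *Xist*, the transcript that silences an X chromosome, had 7 counts in cont. mouse 1 and 28 in *Atg7*-KO mouse 1, against 8740 to 18335 in the other four libraries. Transcripts of the Y chromosome were nevertheless read in all 6. The helicase gene *Ddx3y* stood at 72.9, 25.5 and 6.52 normalized CPM in cont. mice 1, 2 and 3, and at 49.5, 2.49 and 0.409 in *Atg7*-KO mice 1, 2 and 3. Over 4 Y-linked genes, cont. mouse 2 had a median of 36.9% (33.0% to 39.8%) of the level of cont. mouse 1, and cont. mouse 3 had 9.12% (6.71% to 10.0%). Over 10 genes of male liver, the shares were 36.2% (34.6% to 43.3%) and 9.23% (7.45% to 16.4%). These 10 genes were chosen by hand. *Mup1*, a sex-biased gene outside the 10, had 6188, 2921 and 771.3 in cont. mice 1, 2 and 3. Its share in cont. mouse 2 lay above that range. Cont. mice 2 and 3 thus carried *Xist*, Y-linked RNA and male-patterned RNA together. The Y-linked genes and these 10 stood in nearly one ratio per library. In *Atg7*-KO mice 2 and 3 the Y-linked shares were 5.22% and 0.881% of *Atg7*-KO mouse 1. The male-patterned shares there were 106.5% (20.1% to 848.9%) and 59.7% (12.0% to 188.3%), so that in *Atg7*-KO both groups of genes did not keep to one ratio. Whether libraries share RNA or reads was not tested.

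RNA known to stay largely in the nucleus also divided the cont. mice. *Malat1*, a nuclear long non-coding RNA, stood at 322.5 normalized CPM in cont. mouse 1, against 2138 and 2652 in cont. mice 2 and 3. It was at 195.9, 233.6 and 231.4 in *Atg7*-KO mice. All 7 genes of a list of nuclear RNAs were lower in *Atg7*-KO, and its summed level was 1324 in cont. mouse 1, 7736 and 9507 in cont. mice 2 and 3, and 637.1 to 686.4 in *Atg7*-KO. *Egr1*, an immediate early gene, stood at 1320 in cont. mouse 3 and between 18.5 and 34.1 in the other 5 mice. It was not called with all mice and was called lower without cont. mouse 1 (log2 fold change -4.54). *Dbp*, an output of the circadian clock, was at 0.919 in cont. mouse 1, 86.1 and 208.3 in cont. mice 2 and 3, and 1.08 to 4.55 in *Atg7*-KO. Of the 2645 genes called lower in *Atg7*-KO below, 766 (29.0%) stood in cont. mouse 1 at less than 0.5 times their level in both other cont. mice. Of the 2829 called higher, 195 (6.89%) did so. The part that sex, nuclear RNA, handling and time of day have in the results was not tested. Values without cont. mouse 1 are given beside the named genes whose call they change and beside list counts that they move most. These genes and lists were chosen after their values were seen.

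**Figure D1:**
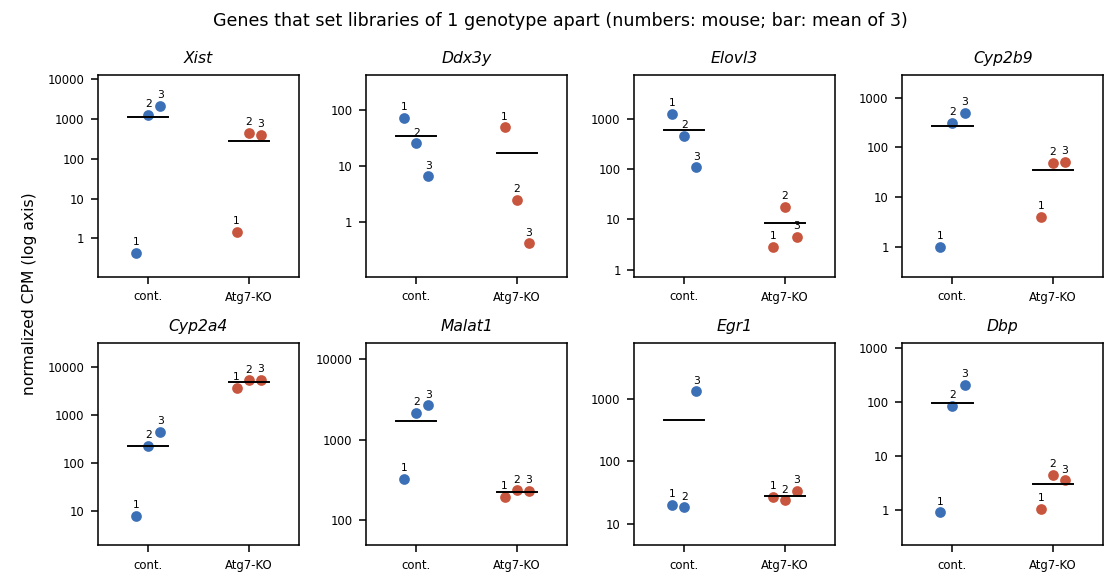
Normalized CPM (log axis) of 8 genes in 3 cont. and 3 *Atg7*-KO livers, 1 point per mouse with its number, and the mean as a bar. *Xist* was low in both mice numbered 1, *Ddx3y* was highest in the same mice, and *Malat1* and *Dbp* were high only in cont. mice 2 and 3.

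*Atg7*, on chromosome 6 from 114643097 to 114860614 (GRCm38), stood at 49.6, 47.6 and 59.7 normalized CPM in cont. and 10.7, 10.2 and 12.8 in *Atg7*-KO mice. The groups did not overlap, and the log2 fold change was -2.22 ± 0.18 (SE; FDR = 0.000331). *Atg7* RNA was thus still read in each *Atg7*-KO liver. Counts are per gene and do not separate the floxed exons from the rest. *Sqstm1* stood at 539.6, 368.1 and 338.8 in cont. and 968.6, 927.7 and 1023 in *Atg7*-KO (log2 fold change 1.23 ± 0.23, FDR = 0.00682). All 3 *Atg7*-KO mice lay above all cont. mice. *Keap1* was between 55.9 and 59.8 in cont. and between 53.5 and 58.0 in *Atg7*-KO, a log2 difference of -0.05 ± 0.14 (FDR = 0.808). *Nfe2l2*, which encodes NRF2, was at 75.8, 221.4 and 263.3 in cont. and 108.3, 129.5 and 128.7 in *Atg7*-KO. Its groups overlapped through cont. mouse 1 and its difference was not called (FDR = 0.281). Without that mouse it was called lower, with a log2 fold change of -0.98.

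Of 24411 listed genes, 13691 passed the filter on low counts and were tested. A gene was called at an FDR under 0.05 and a fold change over 1.5. On these terms 2829 genes (20.7% of those tested) were higher and 2645 (19.3%) lower in *Atg7*-KO, together 40.0%. These shares are the background for every list below. The rises were steeper than the falls, since 1222 genes rose and 598 fell more than 4-fold, and 585 rose and 190 fell more than 8-fold. Of the genes called higher, 260 had at most 3 counts in each cont. mouse, whereas 4 of the genes called lower had at most 3 in each *Atg7*-KO mouse. Upper-quartile scaling moved the split to 3186 higher and 2101 lower, and the median log2 change over all tested genes from -0.03 to 0.10. Without cont. mouse 1, 4074 of 14065 genes (29.0%) were higher and 4049 (28.8%) lower. These included 5334 of the 5474 genes called with all mice, in the same direction. The shares of 29.0% and 28.8% are the background for list counts without that mouse.

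**Figure D2:**
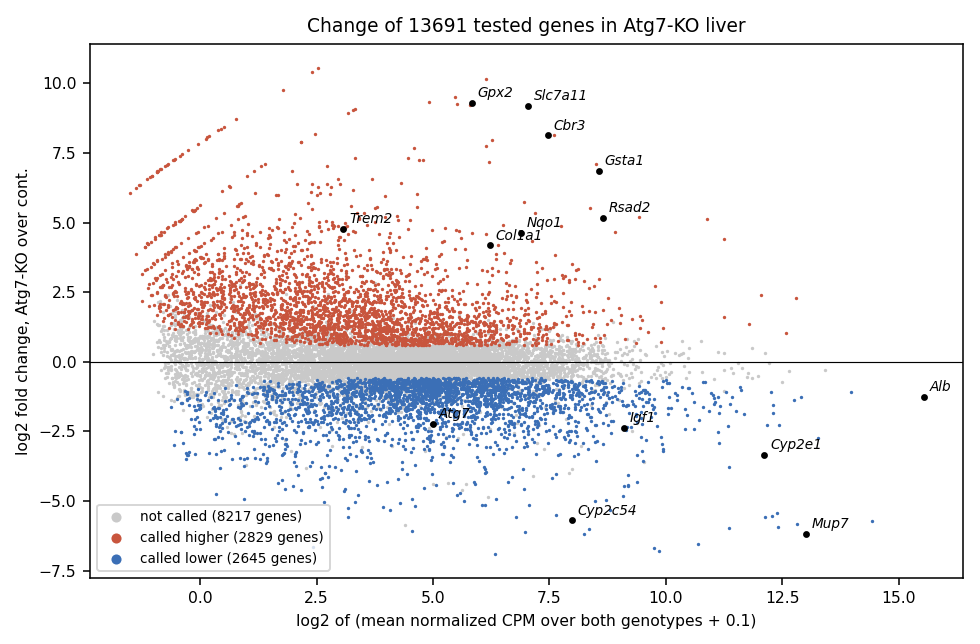
Log2 fold change (*Atg7*-KO over cont.) of each tested gene against the log2 of its mean normalized CPM, 1 point per gene. The 2829 genes called higher reach further from 0 than the 2645 called lower, and *Gpx2*, *Slc7a11* and *Cbr3* lie near the top.

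Several of the steepest rises began from almost nothing. *Tekt5*, a tektin of cilia and sperm tails, stood at 0.102 to 0.122 normalized CPM in cont. and 121.2, 130.9 and 166.7 in *Atg7*-KO. Against a floor of 3 counts per library it was at least 495.6-fold higher. *Sprr1a*, a cornified envelope protein that is known from injured epithelia, was at least 315-fold higher, and *Spink1*, a trypsin inhibitor found in liver tumours, at least 212.4-fold. *AI314278* and *Gm10639*, to which no role is given here, had no count in any cont. mouse and were at least 40.4-fold and 36.7-fold higher. *Gm10639* shares 37.3% of its stretches, mainly with *Gm3776*. Falls were ranked among called genes without overlap and with a mean CPM of at least 10 in cont. The largest of these were the major urinary protein genes *Mup12*, *Mup1* and *Mup7*, *4930404H11Rik* and *Hamp2*. *Cyp2b13*, whose groups overlapped through cont. mouse 1, fell further (log2 fold change -6.89). It stood at 0.0612, 154.6 and 322.8 in cont. and 0.566, 1.71 and 1.68 in *Atg7*-KO. *Mup12* stood at 3777, 1355 and 363.3 in cont. and 4.37, 37.1 and 8.23 in *Atg7*-KO. Its cont. values fell apart by the same steps as the Y-linked genes. Of the 75-base stretches of its transcripts 80.3% occur in other genes, mainly *Mup1*, so that single members of this family are uncertain. *Hamp2* was at 109.3, 827.2 and 4162 in cont. and 15.3 to 17.9 in *Atg7*-KO, so that cont. mice differed among themselves more than 1 of them did from *Atg7*-KO.

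**Figure D3:**
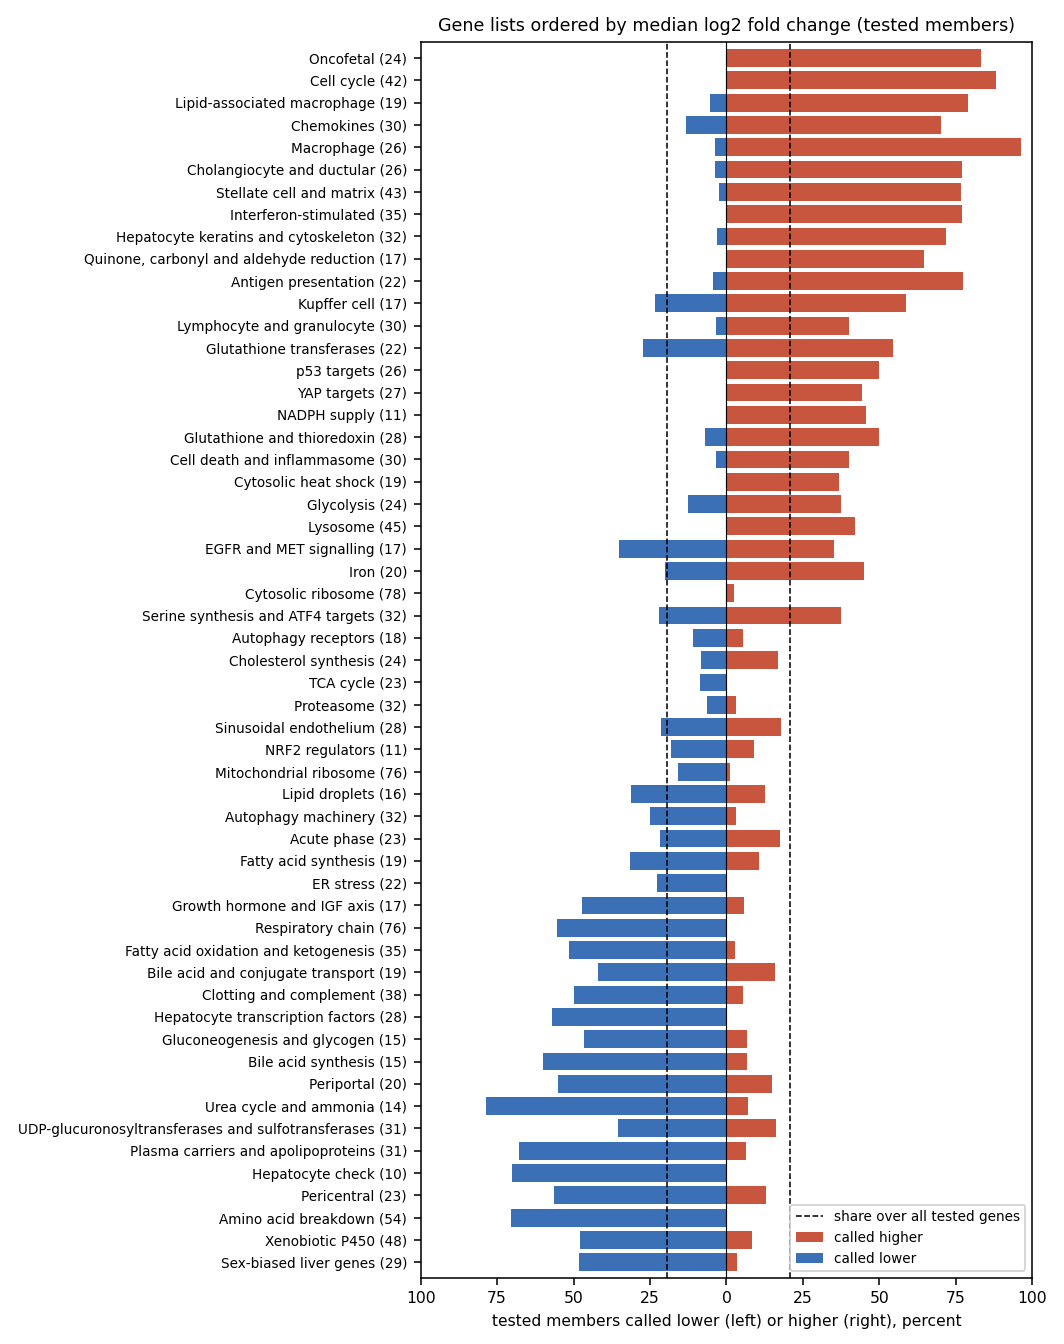
Share of tested members called higher (right) or lower (left) in *Atg7*-KO for gene lists with at least 10 tested members (number in brackets), ordered by median log2 fold change, with dashed lines at the background of 20.7% and 19.3%. Oncofetal, cell cycle and macrophage lists stand at the top and amino acid breakdown, P450 and sex-biased lists at the bottom.

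Genes of electrophile and peroxide defence rose. Of 28 glutathione and thioredoxin genes 14 were higher and 2 lower (median log2 fold change 0.67), of 17 quinone, carbonyl and aldehyde reductases 11 higher and none lower (1.52), and of 11 genes of NADPH supply 5 higher and none lower (0.77). *Gpx2*, a glutathione peroxidase of epithelia, stood at 0.184, 0.204 and 0.118 in cont. and 97.2, 112.3 and 130.6 in *Atg7*-KO, at least 402.4-fold higher. *Slc7a11*, the cystine importer, was at 0.674, 0.306 and 0.237 in cont. and 361.6, 193.3 and 232.7 in *Atg7*-KO (log2 fold change 9.19 ± 0.48). In both genes every *Atg7*-KO mouse lay more than 100 times above every cont. mouse. *Cbr3*, a carbonyl reductase, went from 0.948 to 1.63 in cont. to 338 to 370.4 in *Atg7*-KO, and *Nqo1* from 6.8 to 13.1 to 186.2 to 265.8. *Srxn1*, which repairs overoxidized peroxiredoxins, stood at 48.9, 32.1 and 27.4 in cont. and 1155, 1364 and 1479 in *Atg7*-KO. The superoxide dismutases *Sod1* (log2 fold change -1.30) and *Sod2* (-0.83) were the 2 that fell. *Sod1* had 921.5, 912.1 and 1096 in cont. and 387 to 408.7 in *Atg7*-KO.

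Glutathione transferases went both ways. Of 22 tested, 12 were higher and 6 lower. *Gsta1* stood at 8.45, 1.22 and 9.48 in cont. and 708.6, 654.8 and 875.5 in *Atg7*-KO, though 84.7% of its stretches occur in other genes, chiefly *Gm3776*. *Gstm3* was at 82.4, 75.1 and 158.9 in cont. and 3924, 3362 and 3822 in *Atg7*-KO. The alpha, mu and pi genes *Gsta2*, *Gsta4*, *Gstm1*, *Gstm2*, *Gstm4* and *Gstp2* were also higher, with log2 fold changes of 2.48, 1.98, 2.28, 1.84, 2.85 and 3.92, as were *Gstm5* (1.15), *Gsto1* (0.59) and the microsomal genes *Mgst2* (5.71) and *Mgst3* (1.81). The zeta, theta and kappa genes and a further microsomal one, *Gstz1* (-1.55), *Gstt1* (-1.16), *Gstt2* (-1.28), *Gstk1* (-0.91) and *Mgst1* (-0.92), were lower, as was *Gstm7* (-0.60), which was not called without cont. mouse 1 (-0.55). *Gstz1*, which also serves tyrosine breakdown, had 907.6, 807.5 and 872 in cont. and 270.8 to 320.1 in *Atg7*-KO.

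NRF2 acts through the antioxidant response element, of which the core is written TGACNNNGC. RefSeq promoters of 250 bases before to 50 after a start site were searched on both strands. The core was found in 12.4% of all 32851 promoters, in 14.3% of those of tested genes and in 10 of 51 promoters (19.6%) of the redox genes called higher, which belonged to 8 of 38 genes. One of them, that of the thioredoxin reductase gene *Txnrd1*, is shown from 120 bases before the start to the base before it, with the core in capitals (GRCm38.p6, chr10:82859086-82859205, plus strand). *Txnrd1* itself stood at 146.7, 103.9 and 98.9 in cont. and 461.7, 468 and 476.6 in *Atg7*-KO.
Txnrd1: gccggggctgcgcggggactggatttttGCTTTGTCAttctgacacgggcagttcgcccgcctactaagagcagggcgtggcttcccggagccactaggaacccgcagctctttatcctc

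Of 32 genes of the autophagy machinery, *Atg7* included, 8 were lower and 1 was higher, against 19.3% and 20.7% of all genes. These counts were 10 and 4 without cont. mouse 1, against 28.8% and 29.0% of all genes. After *Atg7*, *Atg4d*, a processing protease of LC3 proteins, was the lowest of those called (log2 fold change -0.99 ± 0.16). *Map1lc3a*, an LC3 gene, was the member that rose, from 28.9 to 40.7 in cont. to 48.5 to 61.8 in *Atg7*-KO. Among 18 cargo receptors *Sqstm1* alone was called higher (4 without cont. mouse 1), and *Optn* (-0.93) and *Sec62* (-0.70) were lower. Of 32 proteasome genes 29 were not called (4 were higher without cont. mouse 1), and of 11 regulators of NRF2 1 was higher and 2 were lower. Lysosomal genes rose in 19 of 45 cases and none was lower. The cysteine protease *Ctss* stood at 45.9, 23 and 16.9 in cont. and 277.1, 262.1 and 271.2 in *Atg7*-KO, and *Cd63*, a tetraspanin of late endosomes, at 3.92 to 5.92 and 76.7 to 92.4. Both are also abundant in macrophages, whose markers rose as given below. *Tfeb*, which drives lysosomal genes, was not called (log2 difference -0.59), but was lower without cont. mouse 1 (-0.84).

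Transcripts of hepatocyte function were lower across most of their branches. Of 10 defining hepatocyte markers 7 were lower, and the remaining *Apob*, *Hnf4a* and *Trf* had log2 differences of -0.54, -0.40 and -0.31. *Alb* stood at 98188, 55519 and 47828 in cont. and 28000, 29079 and 26295 in *Atg7*-KO (log2 fold change -1.27 ± 0.36, FDR = 0.0297). Cont. mouse 1 was the highest, and without it the log2 fold change was -0.89. Without both mice numbered 1 the difference was not called (FDR = 0.14). Of 31 plasma carriers and apolipoproteins 21 were lower and 2 higher, and of 38 clotting and complement factors 19 and 2. *Apoa2*, a major HDL protein, had 11339, 16910 and 23036 in cont. and 2291 to 3069 in *Atg7*-KO. *C8a*, of the membrane attack complex, had 1002, 595.2 and 286.9 in cont. and 51.9 to 115.5 in *Atg7*-KO. *Apoa4*, which is known to follow fasting and steatosis, was an exception. It rose from 45.9 to 52.2 in cont. to 453.8 to 591.2 in *Atg7*-KO.

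Nitrogen metabolism fell most evenly. Of 54 genes of amino acid breakdown 38 were lower and none higher (70.4%, median log2 fold change -1.49). *Prodh*, the proline dehydrogenase, stood at 164, 410.3 and 552.8 in cont. and 45.8, 37.2 and 28.4 in *Atg7*-KO. Of 14 urea cycle and ammonia genes 11 were lower. *Cps1*, which commits ammonia to urea, had 5056, 2720 and 2588 in cont. and 1247, 1195 and 1037 in *Atg7*-KO, and *Ass1* had 572, 1153 and 1917 against 102.6 to 149.9. The groups did not overlap in either gene, but *Ass1* was picked among genes without overlap and *Cps1* after its values were seen. Of all tested genes 26.6% were lower without overlap. *Rhbg*, an ammonia channel, was the member that rose (log2 fold change 1.55), with 59.9% of its stretches shared with *Gm38392*.

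Of 15 genes of bile acid synthesis 9 were lower and 1 higher, and of 19 transporters of bile acids and conjugates 8 were lower and 3 higher. *Cyp7a1*, the rate-limiting enzyme, stood at 110.5, 74.7 and 317.2 in cont. and 69, 26 and 33.4 in *Atg7*-KO (log2 fold change -1.97 ± 0.62, FDR = 0.0406), with cont. mouse 2 close to *Atg7*-KO mouse 1. *Abcb11*, the bile salt export pump, was separated clearly, with 901.7, 1100 and 1047 in cont. and 213.1, 216 and 165.3 in *Atg7*-KO. The uptake carrier *Slc10a1* was lower (-1.71), and the bile acid receptor *Nr1h4* fell by 1.98 on the log2 scale. Some exporters went the other way. *Abcc4* stood at 4.16, 3.67 and 5.92 in cont. and 244.4, 238.4 and 247.3 in *Atg7*-KO (log2 fold change 5.74 ± 0.25). The basolateral transporter subunit *Slc51b* (2.83) and the drug exporter *Abcb1a* (3.02) rose as well.

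Xenobiotic enzymes were mostly lower, with exceptions. Of 48 P450 genes 23 were lower and 4 higher. *Cyp2e1*, which oxidizes ethanol, stood at 7533, 6803 and 9954 in cont. and 849.5, 815.1 and 734.3 in *Atg7*-KO. *Cyp2c54* had 490.8, 519.4 and 473.4 in cont. and 14.1, 11 and 3.37 in *Atg7*-KO. *Cyp2a4* was the largest rise, from 7.72, 219.1 and 433.2 to 3636, 5166 and 5203. Of its stretches 22.1% occur in other genes, mainly *Cyp2a5*, which was also higher (2.40). Of 31 glucuronosyl- and sulfotransferases 11 were lower and 5 higher, and *Sult2a8* fell from 1374, 696.2 and 533.9 to 11 to 32.8.

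Of 28 hepatocyte transcription factors 16 were lower and none higher. The xenobiotic receptor gene *Nr1i3* stood at 78, 272.9 and 377.9 in cont. and 28.3 to 40.3 in *Atg7*-KO, with cont. mouse 1 between the others and *Atg7*-KO. *Esrrg* had 3.57 to 5.69 in cont. and 0.257 to 0.5 in *Atg7*-KO. *Hnf4a*, at 631, 617.4 and 456.7 in cont. and 385.4, 458.5 and 446.2 in *Atg7*-KO, was not called and its groups overlapped.

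Zonal genes of both ends of the lobule were lower. Of 23 pericentral genes 13 were lower and 3 higher, and of 20 periportal genes 11 and 3. *Glul*, glutamine synthetase of the innermost hepatocytes, stood at 931.1, 1136 and 1329 in cont. and 259.9 to 317.2 in *Atg7*-KO. *Slc1a2*, a glutamate carrier of the same cells, fell further, from 118.9, 248.5 and 283.1 to 3.91, 6.34 and 3.46. The Wnt targets *Lgr5* (-1.97), *Notum* (-3.10) and *Tbx3* (-1.71) were lower, and *Axin2* was called lower only without cont. mouse 1 (-1.33 with all mice, -1.71 without it). *Wnt2* and *Rspo3*, endothelial signals for this zone, were lower by 0.93 and 1.07 on the log2 scale. *Slc1a4*, a neutral amino acid carrier, ran opposite to its list, from 4.38 to 7.59 in cont. to 158.4 to 191.1 in *Atg7*-KO.

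Nuclear-encoded subunits of the respiratory chain were lower in 42 of 76 cases and higher in none (median log2 fold change -0.69). *Uqcrq*, of complex III, had 512.8, 629.3 and 727.7 in cont. and 248.5, 193.1 and 226.8 in *Atg7*-KO. In none of the 42 was cont. mouse 1 under 0.5 times both other cont. mice. The same held for the 19 clotting and complement genes and the 21 plasma carriers and apolipoproteins called lower. Among the 13 pericentral and 11 periportal genes called lower, cont. mouse 1 stood so in 4 (30.8%) and 3 (27.3%). The share was 29.0% among all genes called lower. Other mitochondrial groups moved less. Of 23 TCA cycle genes 2 were lower, and of 76 mitochondrial ribosomal genes 12 were lower, below the background of 19.3%. Those called higher were 4 and 9 without cont. mouse 1. Among 78 cytosolic ribosomal genes 2 were called higher, and 20 without cont. mouse 1. Each of these counts without that mouse is a smaller share than its background of 29.0%. Of 35 genes of fatty acid oxidation and ketogenesis 18 were lower. *Cyp4a14*, a PPAR-alpha target, stood at 84.5, 1510 and 494.2 in cont. and 9.61 to 33.5 in *Atg7*-KO, and *Ppara* itself fell by 1.16 on the log2 scale.

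Lipid and glucose genes showed no single direction. Of 19 lipogenic genes 6 were lower and 2 higher, and of 16 lipid droplet genes 5 and 2. With cont. mouse 1 left out, 5 lipogenic and 6 lipid droplet genes were higher. *Scd2*, a desaturase usually low in adult liver, stood at 10.4, 4.18 and 6.04 in cont. and 332.8, 251.2 and 270.6 in *Atg7*-KO. *Mlxipl*, the carbohydrate response factor and one of the nuclear RNAs above, was lower (312.8, 1654 and 2068 against 99.6 to 125.2). Of 24 cholesterol genes 4 were higher, *Sqle* most (log2 fold change 2.12 ± 0.20), and 2 lower. The counts were 9 and 3 without cont. mouse 1. In glycolysis *Hk2* rose from 1.47 to 3.77 to 15.5 to 21.8 and *Pkm* from 17.6 to 23.5 to 95.6 to 125.2. Of 15 genes of glucose output and glycogen 7 were lower, among them *G6pc* (-2.28) and *Pck1* (-2.09).

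The growth hormone axis was lower in 8 of 17 genes. *Igf1* stood at 797.7, 995.9 and 967.4 in cont. and 175.4, 197.4 and 158.7 in *Atg7*-KO, and the receptor *Ghr* at 923.3, 531.5 and 518.8 against 123.8 to 162.5. Growth hormone is known to set sex-biased genes of liver, and 14 of 29 such genes were called lower. *Elovl3*, an elongase, had 1240, 450.7 and 107.1 in cont. and 2.88, 17.4 and 4.5 in *Atg7*-KO. The female P450 *Cyp2b9* had 0.98, 308.6 and 490.6 in cont. and 3.91, 49.6 and 51.7 in *Atg7*-KO. It was not called (FDR = 0.195), and its levels were lowest in the mice numbered 1 of both genotypes. Without cont. mouse 1 it was called lower (log2 fold change -3.51, FDR = 0.00698), and so were 20 of the 29 genes. The part that differences in sex among the libraries have in these values was not tested.

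Proliferation genes rose nearly throughout. Of 42 cell cycle genes 37 were higher and none lower (88.1%, median log2 fold change 3.19). *Mki67* stood at 1.47, 5 and 5.57 in cont. and 23, 41.6 and 42 in *Atg7*-KO, and *Cdk1* at 1.71, 1.94 and 1.9 against 21.6, 28.3 and 35.7. *Atg7*-KO mouse 1 was the lowest of its group for both. *Ccnd1*, a G1 cyclin, had 22.7, 61.7 and 31.9 in cont. and 141.5, 194.1 and 179 in *Atg7*-KO. The cell types that divide cannot be read from whole liver.

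The CCAAT box is a common element of promoters active in the G2 phase. Its letters CCAAT were found on either strand in 37.4% of all promoters, in 37.3% of those of tested genes and in 23 of 29 promoters (79.3%) of the cell cycle genes called higher. Those of the mitotic cyclins *Ccnb1* (chr13:100786487-100786606, minus strand) and *Ccnb2* (chr9:70421555-70421674, minus strand) are shown in the same window because each holds the box more than once, in capitals. *Ccnb1* rose from 0.245 to 1.07 to 9.1 to 17.7 normalized CPM, and *Ccnb2* had a log2 fold change of 4.04. Of the stretches of *Ccnb1* 18.9% occur in other genes, mainly a pseudogene.
Ccnb1: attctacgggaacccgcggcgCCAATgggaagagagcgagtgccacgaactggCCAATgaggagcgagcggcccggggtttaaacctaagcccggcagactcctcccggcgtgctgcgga
Ccnb2: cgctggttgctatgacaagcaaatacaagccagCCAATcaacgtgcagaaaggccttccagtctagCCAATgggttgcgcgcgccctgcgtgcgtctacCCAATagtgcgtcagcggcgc

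Genes of fetal liver and liver tumours rose in 20 of 24 cases. *Afp*, the classical fetal plasma protein, stood at 1.47, 0.714 and 1.66 in cont. and 32, 25.7 and 38.7 in *Atg7*-KO. *Gpc3*, a glypican, had 0.857, 0.306 and 2.13 against 25.9, 55.9 and 66.4, and the imprinted RNA *H19* was at least 45.4-fold higher. Its imprinted neighbour *Igf2* was not called (log2 difference 0.35). Of 26 p53 targets 13 were higher and none lower. *Cdkn1a*, the cell cycle inhibitor p21, had 39, 41.2 and 10.4 in cont. and 104.6, 120.7 and 118.1 in *Atg7*-KO, and *Ddit4l* rose from 0.816 to 1.07 to 34.8 to 37. *Trp53* itself (0.03) and *Mdm2* (0.21) were not called. Of 30 cell death and inflammasome genes 12 were higher, led by *Casp12*, a caspase of the endoplasmic reticulum (1.53 to 2.72 against 52.7 to 75.1).

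Markers of macrophages, matrix-producing cells and ductular cells were mostly higher, whereas those of sinusoidal endothelium were not. Of 26 macrophage markers 25 were higher and 1 lower, and their summed level went from 453.6 to 505.3 in cont. to 2053 to 2139 in *Atg7*-KO. *Adgre1* (F4/80) stood at 26.2, 12.2 and 4.74 in cont. and 84.2, 85.7 and 88.2 in *Atg7*-KO. Genes of lipid-associated macrophages rose in 15 of 19 cases. *Trem2*, their defining receptor, had 0.551, 0.612 and 0.592 in cont. and 17.7, 15.7 and 14.5 in *Atg7*-KO (log2 fold change 4.76 ± 0.23), and *Gpnmb* was at least 70-fold higher. *Apoe*, on the same list but made mainly by hepatocytes, was lower. Its level sets the summed level of that list, which was lower in *Atg7*-KO.

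Kupffer cell genes went both ways. Of 17 tested, 10 were higher and 4 lower. The complement genes *C1qa*, *C1qb* and *C1qc* had log2 fold changes of 2.22, 2.46 and 2.31. *Clec4f*, the marker held to be particular to resident Kupffer cells, stood at 114.5, 162.4 and 144.9 in cont. and 204.5, 183.6 and 194.3 in *Atg7*-KO, which did not overlap but missed the threshold (FDR = 0.083). *Timd4*, of long-lived resident cells, was lower (10.8, 7.24 and 7.11 against 4.11, 2.32 and 3.68), and *Cd163* fell from 13.1 to 17.5 to 1.82 to 2.83. Of 30 lymphocyte and granulocyte markers 12 were higher and 1 lower. Among them were genes of cytotoxic cells, such as *Cd8a* (0.245 to 0.474 against 4.27 to 5.46), *Prf1* (3.56) and *Gzma* (2.65), whereas *Cd4* (-0.22) and *Cd79a* (-0.22) were not called.

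Matrix genes rose in 33 of 43 cases. *Col1a1*, of fibrillar collagen, stood at 4.29, 7.14 and 12.1 in cont. and 114.7, 156.6 and 151 in *Atg7*-KO, and *Col3a1* at 26.5, 22.5 and 27.8 against 301.6, 433.3 and 366.9. *Timp1*, an inhibitor of matrix proteases, was at least 16.7-fold higher. The contractile marker *Acta2* rose less (log2 fold change 0.93), and *Des* was not called (0.47). Ductular markers rose in 20 of 26 cases. *Epcam* had 1.35, 1.12 and 0.829 in cont. and 16.5, 21 and 18 in *Atg7*-KO, *Spp1* had 46, 26.3 and 36.5 against 1028, 930.4 and 822.3, and *Krt19* had 1.1, 1.02 and 2.49 against 8.07, 8.36 and 6.87. *Spp1* is also a gene of lipid-associated macrophages. *Krt7* (0.97) was not called. Endothelial markers showed no such rise, with 5 of 28 higher and 6 lower, near the background of 20.7% and 19.3%. Without cont. mouse 1 the counts were 6 and 9, against 29.0% and 28.8% of all genes. *Stab2*, a scavenger receptor of sinusoids, stood at 63.9, 163.3 and 139.7 in cont. and 50.7 to 55.5 in *Atg7*-KO, whereas *Lyve1* (1.56) and *Cd34* (2.77) were higher.

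**Figure D4:**
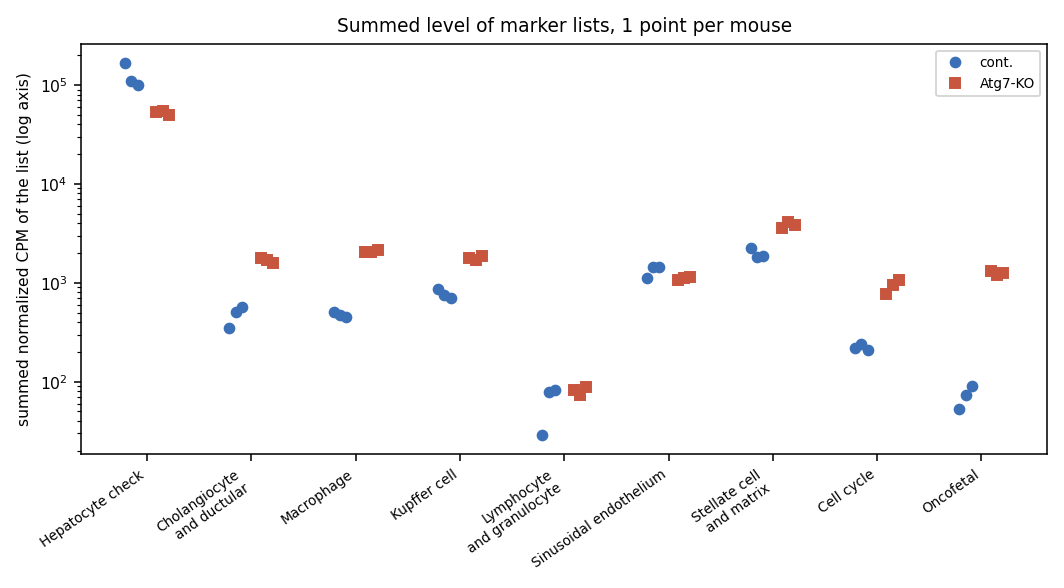
Summed normalized CPM (log axis) of 9 marker lists, 1 point per mouse. Macrophage sums were 453.6 to 505.3 in cont. and 2053 to 2139 in *Atg7*-KO, oncofetal sums 53.5 to 90.2 and 1202 to 1324, and the sums of sinusoidal endothelium lay close together (1107 to 1448 and 1073 to 1137).

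Interferon-stimulated genes rose in 27 of 35 cases and fell in none (77.1%, median 1.89). *Rsad2* (viperin) stood at 19.4, 19 and 26.7 in cont. and 676.2, 767.4 and 895.1 in *Atg7*-KO, and *Oasl1* at 20.3, 9.28 and 12.8 against 361.5, 432.1 and 449.2. The transcription factors *Irf1* (-0.30), *Irf9* (-0.18) and *Stat2* (-1.26) were not called. *Irf1* (-0.63) and *Stat2* (-1.66) were called lower when cont. mouse 1 was left out. The interferon-stimulated response element, searched as GAAA, any 2 bases and GAAA, was found in 3.44% of all promoters, in 3.22% of those of tested genes and in 12 of 22 promoters (54.5%) of the members called higher. Those of *Ifit1* (chr19:34640769-34640888, plus strand) and *Isg15* (chr4:156200819-156200938, minus strand) are shown because they hold 2 and 3 matches, in capitals. The 3 matches of *Isg15* overlap in 1 run. *Ifit1* rose from 12.1, 13.1 and 20.3 to 138.6, 226.8 and 205.9, and *Isg15* from 7.72, 7.85 and 9.6 to 66.6, 91.4 and 100.1.
Ifit1: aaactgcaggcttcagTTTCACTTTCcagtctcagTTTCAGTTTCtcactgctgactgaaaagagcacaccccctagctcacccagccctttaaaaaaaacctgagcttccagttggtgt
Isg15: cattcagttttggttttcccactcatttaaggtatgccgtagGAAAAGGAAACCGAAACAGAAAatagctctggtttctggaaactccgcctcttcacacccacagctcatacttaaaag

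Of 30 chemokine and receptor genes 21 were higher and 4 lower. *Ccl2*, which draws monocytes, stood at 0.98, 0.306 and 1.18 in cont. and 30.6, 27.7 and 33.2 in *Atg7*-KO, and its receptor *Ccr2* had a log2 fold change of 3.02. *Cxcl10* had 6.55, 4.69 and 5.33 against 99.9, 132.6 and 172.5. Among 22 antigen presentation genes 17 were higher, with the class II gene *H2-Eb1* (24 to 28.3 against 167.5 to 178.5) and its invariant chain *Cd74* (87.5 to 99 against 595.8 to 632.4) in the lead. The class I light chain *B2m* (-0.06) was not called.

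Signalling and cytoskeletal genes were also regrouped. Of 17 EGFR and MET genes 6 were higher and 6 lower. The ligands *Btc* (3.18), *Nrg1* (5.24), *Tgfa* (1.96), *Ereg* (1.79) and *Hbegf* (1.63) rose, and the receptors *Egfr* (446.1, 227.2 and 108.9 against 95.8, 62.9 and 56.6) and *Erbb3* (-1.10) fell. Of 27 YAP targets 12 were higher and none lower. *Ankrd1* stood at 0.184, 0.102 and 1.54 in cont. and 5.4, 4.2 and 7 in *Atg7*-KO, whereas *Cyr61* (-1.27) was not called. Of 32 keratin, tubulin, actin and tropomyosin genes 23 were higher, with *Tuba8* at 1.33 to 2.96 against 28.1 to 38.7.

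Stress pathways differed among themselves. Of 32 genes of serine synthesis and ATF4 targets 12 were higher and 7 lower. *Fgf21*, a starvation hormone, stood at 0.0612, 1.33 and 0.474 in cont. and 6.89, 6.69 and 6.37 in *Atg7*-KO, and *Psat1* (2.60) and *Phgdh* (1.89) rose. *Atf4* itself was lower (-0.63, FDR = 0.0178). Without cont. mouse 1 its FDR was 0.0025, but its log2 fold change of -0.58 fell just short of the 1.5-fold threshold and the call was lost. *Gdf15* had 7.41, 25.9 and 512.2 in cont. and 27.3 to 36.1 in *Atg7*-KO. Its 1 high value lay in the mouse with high *Egr1*, and without cont. mouse 3 the sign of its log2 difference turned to 0.88, whereas without cont. mouse 1 it was called lower (-3.12). Of 22 ER stress genes 5 (22.7%) were lower, near the background of 19.3%, and none higher, with *Herpud1* from 584.2 to 647.8 to 204.2 to 211.2. The chaperone *Hspa5* was not called (-0.78). Without cont. mouse 1, 3 genes of this list were higher and its median log2 fold change went from -0.56 to -0.09. Of 19 cytosolic heat shock genes 7 were higher, such as *Hspb1* (28.4 to 31.5 against 114.6 to 136.4), and 14 were higher without cont. mouse 1. The background is then 29.0% higher and 28.8% lower. Of 23 acute phase genes 4 were higher and 5 lower, with *Lcn2* from 6.49 to 18 to 207.5 to 371.4 and *Saa4* from 290.5 to 477.3 to 60.9 to 68.3. Of 20 iron genes 9 were higher and 4 lower. The hormone hepcidin, *Hamp*, stood at 632.7, 1446 and 1920 in cont. and 162.7 to 224.1 in *Atg7*-KO, whereas *Bmp6*, which is known to induce it, rose from 2.01 to 4.9 to 14.9 to 20.8.

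**Figure D5:**
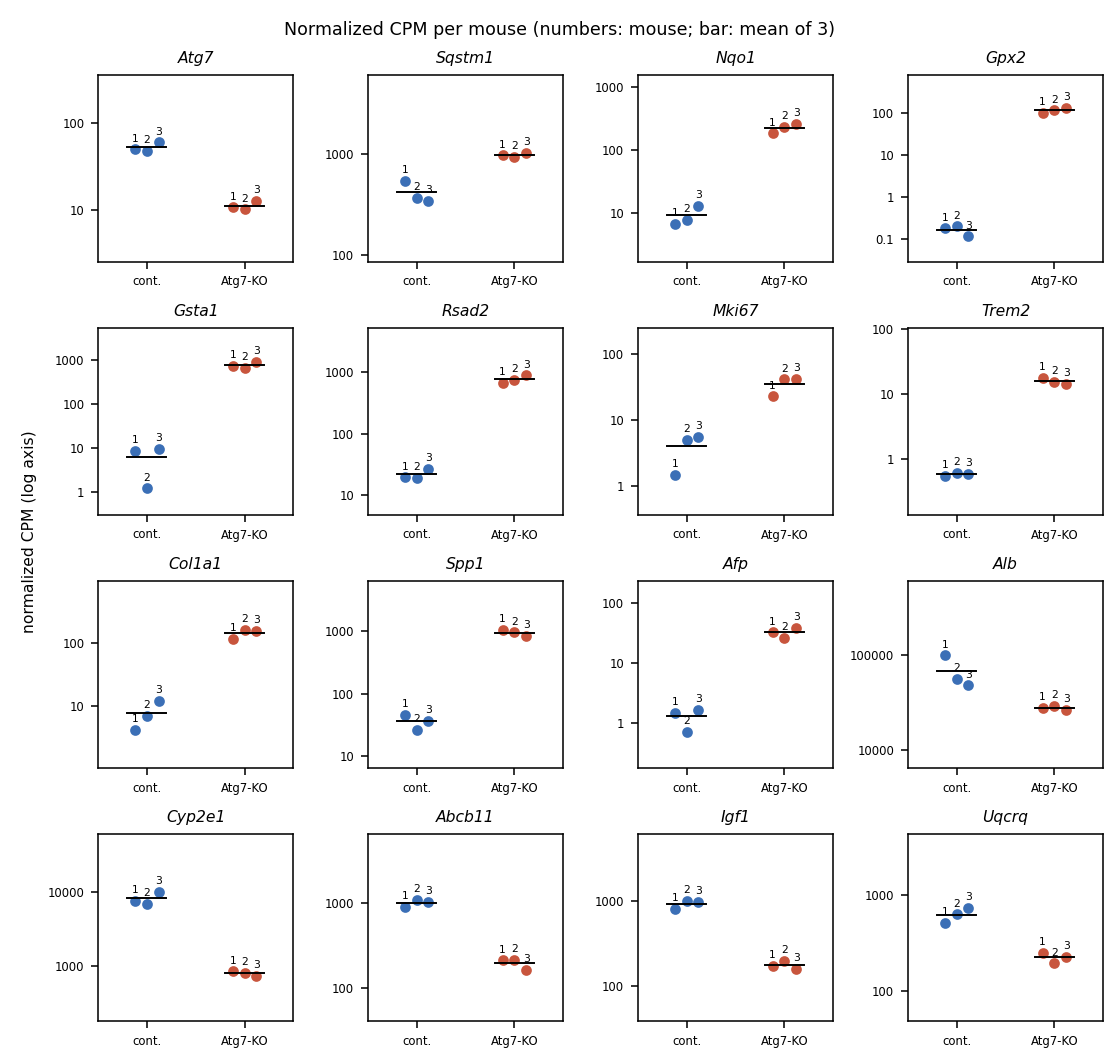
Normalized CPM (log axis) of 16 genes in each mouse, with the mouse number and the mean as a bar. The genotypes are separated in each of the 16 panels, by a wide gap for *Gpx2*, *Gsta1*, *Rsad2* and *Trem2* and a narrow one for *Alb* and *Sqstm1*. *Gpx2*, *Gsta1*, *Rsad2*, *Cyp2e1*, *Igf1* and *Uqcrq* were picked among genes without overlap, and *Spp1* and *Abcb11* after their values were seen. *Keap1*, *Nfe2l2*, *Hnf4a* and *Gdf15*, named by role like the remaining panels, overlapped between the genotypes and are not shown. Separation in every panel thus follows from the choice of genes. Of all tested genes, 29.4% were higher and 26.6% lower without overlap.

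Markers of other tissues were mostly below the filter. Of 13 pancreatic markers 2 passed the filter, and the list summed to 16.2 to 52.0 in cont. and 14.1 to 17.0 in *Atg7*-KO. Red cell genes summed to 690.8 to 1434 and 479.7 to 603.9, with 2 of 7 called lower. Of 10 fat and muscle markers 1 passed the filter and was lower. In the gut list *Lgals4* was lower and *Vil1*, which ductular cells also express, higher.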

How the data were processed

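Poly(A) RNA of liver was sequenced by the authors as 75-base single-end reads, which were trimmed with Trim Galore, mapped to mm10 with STAR and counted with RSEM, per the labels and the methods of the study. Versions, gene annotation and strand setting are not given in the sources used here. Labels name RNeasy for extraction and the methods name TRIzol. The deposited values are expected counts per gene without scaling, and they were rounded to whole numbers. The 3 columns of *Atg7*-KO mice with a mutant *p62* entered only 1 alternative, a fit of 3 genotypes together. It called 6080 genes between *Atg7*-KO and cont. The 3 labelled *p62* mutant mice without *Cre* were not analysed here.

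Genes were kept by filterByExpr, libraries scaled by TMM, and genotypes compared with edgeR 4.0.16 (quasi-likelihood F test, R 4.3.3). Genes were called where the FDR (Benjamini-Hochberg) was below 0.05 and the fold change exceeded 1.5. Normalized CPM refer to the TMM-scaled library and do not compare levels between genes, since length is not taken out. SE of log2 fold changes came from the F statistic. Fold changes called "at least" were computed against a floor of 3 counts per library, which covers counting error only. The labels do not say more of the replicates than that they are separate mice. Alternatives included DESeq2 1.42.0, other scalings and filters, a length offset, the replicate block and each mouse left out. The steps were tested on simulated data, in which 200 of 13710 tested genes changed 4-fold at a dispersion of 0.08. The edgeR test recovered 98.5% of them and called 2 unchanged genes. The simulation held no library set apart and a far smaller share of changed genes, so it does not show error rates for these data. Lists are described by counts of called members and the median log2 fold change, without a test.

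Of 24411 genes, 24046 matched the GENCODE vM21 annotation of GRCm38 (mm10), 670 through a synonym. Shared sequence is the percentage of the 75-base stretches of a gene that occur in transcripts of other genes. It is set beside some named genes only, and genes without it are not free of shared stretches. Among others it was 46.4% for *Hspb1*, 32.6% for *Ass1*, 24.0% for *Apela* and 21.6% for *Gstm3*. Reads of a gene and its antisense partner could not be told apart. Promoter sequences are those of RefSeq (GRCm38.p6).

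The members and the 59 lists were chosen with earlier results of these data known. Named by rule were 18 genes chosen by role. From each list came the 2 called members with the largest change in its main direction and the 1 in the other. These had a mean CPM of at least 1 in the higher group and no overlap. The 5 largest rises and 5 largest falls had a mean CPM of at least 10 in the higher group and no overlap. Further list members are named with their log2 fold changes to describe their list. They, and the genes set out in full outside this rule, were chosen after their values were seen, as were 7 added lists.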

Additional observations from a re-analysis of the deposited data

How the results depend on the processing

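The total of 5474 called genes moved beyond 1.5 times with glmTreat (3328) and in a range of 2877 to 8123 when 1 mouse was left out. Higher genes then ranged from 1907 to 4074 and lower genes from 970 (without *Atg7*-KO mouse 3) to 4049 (without cont. mouse 1), with 1612 lower genes without cont. mouse 2, 1115 without *Atg7*-KO mouse 1 and 1036 without *Atg7*-KO mouse 2. glmTreat gave 1311 lower genes. DESeq2 called 6113 and upper-quartile scaling 5287. The median log2 fold change of -0.03 moved to -0.054 with DESeq2, -0.053 with its size factors in edgeR, 0.10 with upper-quartile scaling, -0.056 without a filter, 0.010 with the replicate block, 0.034 without the mice numbered 1 and -0.080 with the length offset, and from -0.047 to 0.025 when 1 mouse was left out. *Keap1* turned to 0.09 with upper-quartile scaling and 0.04 with at least 10 counts in every mouse. With 1 mouse left out, *Gdf15* ranged from -3.12 (without cont. mouse 1, called) to 0.88 (without cont. mouse 3), *Egr1* from -4.56 to 0.56 (without cont. mouse 3) and *Ddx3y* from -4.58 (without *Atg7*-KO mouse 1) to 0.10 (without cont. mouse 1). None of the values that changed sign was called. Causes were not tested.

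Mouse numbers 1 to 3 are shared by the genotypes. The study describes no pairing, and the numbers were not taken as pairs. Deviations of same-numbered mice correlated at 0.286, 0.0678 and 0.247, and those of mice with different numbers at -0.258 to 0.13. With so few mice these values do not decide whether mice were paired. With the replicate block 4865 genes were called, 2645 higher and 2220 lower.

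Depth is counted per gene. At most 3 counts in a library show no level, and isoforms, floxed exons, cell types and the origin of the Y-linked RNA are beyond these counts.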

Other observations

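Groups outside the lists above were looked at after their values were seen, and are given as values. All 5 tested genes of the Ly6 family were higher in *Atg7*-KO. *Ly6a* (Sca-1) stood at 13.6, 12.3 and 16.3 normalized CPM in cont. and 540.4, 661.2 and 735 in *Atg7*-KO, and *Ly6d* at 1.12 to 1.53 against 379.6 to 392.8. *Ubd*, a ubiquitin-like modifier induced by interferon, had 0.919, 0.51 and 0.355 in cont. and 134.3, 133.4 and 152.3 in *Atg7*-KO. *Apela*, a ligand of the apelin receptor, was at least 325.5-fold higher, and the elongase *Elovl7* rose from 0.204 to 0.919 to 134.9 to 166. *Rragd*, a Rag GTPase that recruits mTORC1 to lysosomes, had 2.69, 2.75 and 2.37 against 86.2, 66.8 and 67.7. The fatty acid receptor *Cd36* had 31.8 to 57 against 377.5 to 397.4. Of 22 carboxylesterase and carbonic anhydrase genes 12 were lower and 6 higher, and *Car3* fell from 7325, 3342 and 4068 to 385.8, 372.5 and 313.2.

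Of 19 circadian clock genes 11 (57.9%) were lower and none higher, against 19.3% and 20.7% of all genes. In 7 of these 11 (63.6%) cont. mouse 1 stood under 0.5 times both other cont. mice. The share was 29.0% among all genes called lower. The list summed to 704.3, 1409 and 1940 in cont. mice 1, 2 and 3, and to 417.1 to 479.6 in *Atg7*-KO. *Nr1d1* stood at 48.8, 262.8 and 380 in cont. and 11.4, 35.7 and 38.5 in *Atg7*-KO, and the activator *Arntl* was not called (log2 difference -0.20). Of 20 immediate early genes 2 were lower and 4 higher, and 7 were lower without cont. mouse 1. Their summed level was 370.8 and 571.4 in cont. mice 1 and 2, 5747 in cont. mouse 3 and 620.3 to 719.7 in *Atg7*-KO. The metallothioneins *Mt1* and *Mt2* summed to 56.8 in cont. mouse 1, 1982 and 2616 in cont. mice 2 and 3 and 303.9 to 439.7 in *Atg7*-KO, and were not called. Without cont. mouse 1 both were called lower (log2 fold changes -3.06 and -2.12).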
